A study of Mus musculus with 32 samples.

Results

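Myc, a proto-oncogene, was described here with 36 genes of ribosome biogenesis and 2 of polyamine synthesis, across cultured lymphoma cells and lymphoma-bearing mouse brains. The members were defined by gene name and function. They are 39 of the 19938 genes that the arrays measured with a probe set of a single gene symbol. By role, 4 belong to box C/D and U3 small nucleolar ribonucleoproteins (snoRNPs), 4 to H/ACA snoRNPs and their chaperone, 6 to RNA polymerase I and its nucleolar regulators, 10 to small subunit assembly, 12 to large subunit assembly, and 2 to polyamine synthesis. The mean log2 intensity over the 36 members other than Myc, Srm and Odc1 is called the biogenesis mean below.

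MYC is a transcription factor that binds DNA as a dimer with MAX, typically at the E-box CACGTG. Among its best known targets are genes for ribosome production: RNA polymerase I transcribes the ribosomal RNA precursor in the nucleolus, snoRNPs guide its cleavage, methylation and pseudouridylation, and assembly factors such as the small subunit processome and the PeBoW complex (PES1, BOP1 and WDR12) build the subunits around it. Ornithine decarboxylase, encoded by Odc1, and spermidine synthase, encoded by Srm, make polyamines and are classical MYC targets as well. Proliferating B cells and B cell lymphomas make many ribosomes, whereas most cells of the adult brain do not divide.

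The mice modelled primary central nervous system lymphoma. BAL17VII is a line derived from the B cell lymphoma line BAL17, which is of BALB/c origin, and each line was profiled in culture on 6 arrays. Brains came from wild type BALB/c mice that had received 500000 lymphoma cells: 5 whole brains 21 days after implantation of BAL17VII cells, 5 brains 28 days and 5 brains 21 days after implantation of BAL17 cells. The controls were 5 whole brains 28 days after injection of PBS, and no PBS brains at day 21 were analysed here. The age of the mice and any treatment beyond implantation are not given in the sources used here. Each line is a single established line, and whether its 6 arrays stem from independent cultures is not stated, so that p-values between the lines measure the spread between arrays, which may be technical. The descriptions number the line arrays and the brain arrays in separate series, and the entry on RNA extraction names frozen tissue sections for every sample, the lines included. A difference between a line and a brain cannot be told apart from a difference between those series. All intensities are given as log2 of the deposited RMA intensity, and a difference between groups is a log2 fold change with its standard error (SE) from limma.

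Array medians ran from 81.7 to 93.0 in linear units, and correlations between arrays of a group from 0.974 to 0.989. The 14 measured B lineage markers averaged 9.0 in BAL17VII cells, 8.92 in BAL17 cells, 6.96 in BAL17VII brains, 7.63 in BAL17 brains at day 28, 7.52 in BAL17 brains at day 21 and 6.12 in PBS brains. Replicate 1 of the BAL17VII brains stood apart from the other brains of its group. Its B lineage mean was 6.05, within the 5.97 to 6.19 of the PBS brains and below the 6.92 to 7.46 of the other BAL17VII brains, and its mean over 19 mitosis genes was 5.66 against 5.55 to 5.71 in PBS brains. Beside the values of the BAL17VII brains, the counts of members called, Myc and the members whose call changed are therefore also given without it, and for the comparison with PBS brains so are the members shown array by array. The mean of 7 pituitary markers varied among the BAL17VII brains from 5.58 to 9.14, against 5.61 to 6.54 in PBS brains, so that tissue composition differed between brains in this respect too. The part of these differences in the results below was not tested. In a whole brain, more lymphoma cells and more RNA per cell cannot be told apart.

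RefSeq promoter windows, which run from 250 bases before to 50 bases after a gene's start, were found for 32 of the 39 members. The motif CACGTG, which reads the same on both strands, occurred in the windows of 7 of these 32 genes, or 21.9%, against 9.57% of the 15012 protein-coding genes on the arrays that have such windows. The 7 were Wdr43, Tsr1, Mybbp1a, Pes1, Utp20, Nop2 and Nle1. These matches describe letters in the windows and not measured binding. The windows of Wdr43, a component of the small subunit processome, Mybbp1a, a nucleolar MYB-binding protein, and Pes1, a PeBoW subunit, are shown because they represent 3 roles among the members with a match, with the motif in capitals (GRCm38.p6). They lie on the plus strand at chr17:71615965-71616264, chr11:72441077-72441376 and chr11:3963725-3964024, and the motif starts at base 268, 291 and 253 of the window.
Wdr43: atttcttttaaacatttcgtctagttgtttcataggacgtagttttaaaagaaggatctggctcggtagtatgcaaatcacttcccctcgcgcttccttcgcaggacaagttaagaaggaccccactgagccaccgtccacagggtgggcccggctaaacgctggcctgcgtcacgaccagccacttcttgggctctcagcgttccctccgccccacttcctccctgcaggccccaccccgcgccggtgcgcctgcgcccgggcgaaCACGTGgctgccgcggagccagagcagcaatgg
Mybbp1a: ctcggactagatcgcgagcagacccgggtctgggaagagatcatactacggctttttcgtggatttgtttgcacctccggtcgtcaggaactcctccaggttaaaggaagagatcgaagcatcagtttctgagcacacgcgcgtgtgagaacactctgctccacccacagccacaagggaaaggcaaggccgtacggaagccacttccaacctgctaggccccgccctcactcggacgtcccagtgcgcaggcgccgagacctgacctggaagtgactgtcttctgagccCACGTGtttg
Pes1: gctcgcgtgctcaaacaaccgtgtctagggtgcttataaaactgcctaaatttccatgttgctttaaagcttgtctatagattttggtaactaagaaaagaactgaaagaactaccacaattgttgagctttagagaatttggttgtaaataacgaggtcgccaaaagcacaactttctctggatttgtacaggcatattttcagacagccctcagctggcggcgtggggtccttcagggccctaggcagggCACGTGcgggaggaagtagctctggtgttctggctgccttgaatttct
Of these 7 genes, Wdr43 was among the members with the largest differences from PBS brains, whereas Tsr1, Utp20 and Nle1 were not called in any comparison of implanted with PBS brains.

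Myc was the member with the widest range. In BAL17VII cells it lay at 12.38, 12.44, 12.30, 12.32, 12.19 and 12.26, and in BAL17 cells at 12.20, 12.21, 12.06, 12.14, 12.14 and 12.25. The brains of BAL17VII mice had 7.12, 9.94, 9.37, 9.10 and 9.57. BAL17 brains had 9.86, 10.15, 10.16, 10.35 and 10.20 at day 28, and 10.91, 10.35, 10.53, 10.71 and 11.19 at day 21. The PBS brains had 6.85, 7.30, 6.62, 6.71 and 7.0. Both lines were thus far above every brain, all BAL17 brains were above all PBS brains, and BAL17VII replicates 3, 4 and 5 lay between the ranges of the PBS and the BAL17 brains. Replicate 1 lay inside the PBS range, and replicate 2 inside the range of the BAL17 brains.

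**Figure D1:**
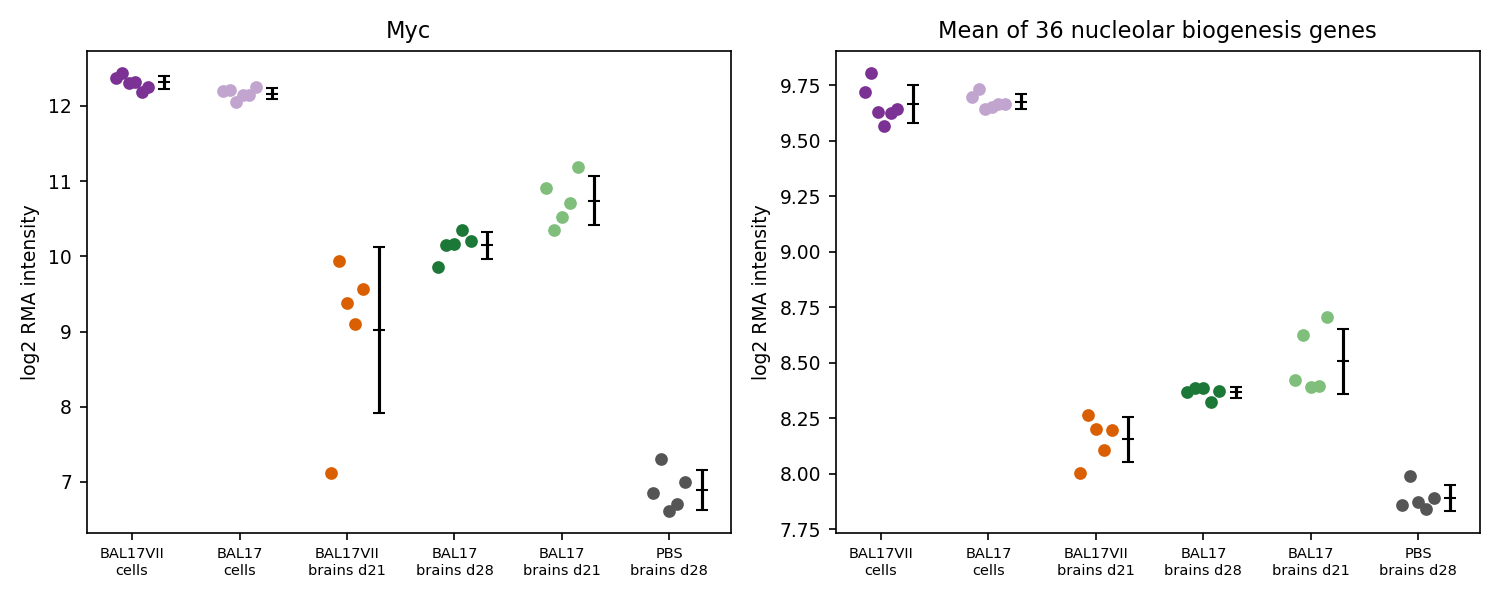
Log2 RMA intensity of Myc (left) and the mean log2 intensity of 36 nucleolar biogenesis genes (right) on each array, by group. Each point is an array, and the bar beside it gives the group mean and SD (6 arrays per line, 5 brains per group). Myc spans 6.62 to 12.44 and the biogenesis mean 7.84 to 9.81. BAL17VII brain replicate 1, the lowest orange point, has Myc at 7.12, inside the range of the PBS brains.

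The biogenesis mean ran in the same order as Myc over the brain groups, over a narrower range, and hardly differed between the lines. It was 9.66 ± 0.09 in BAL17VII cells and 9.67 ± 0.03 in BAL17 cells (SD, n = 6 each). It was 8.16 ± 0.10 in BAL17VII brains, 8.37 ± 0.03 in BAL17 brains at day 28, 8.51 ± 0.15 in BAL17 brains at day 21 and 7.89 ± 0.06 in PBS brains (SD, n = 5 each). The lines overlapped, and the brain groups did not overlap in any of the 4 pairs BAL17VII with PBS, BAL17 with PBS at either day, and BAL17VII with BAL17 at day 21. Without replicate 1 the BAL17VII brains had 8.19 ± 0.06 (SD, n = 4).

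The lines exceeded PBS brains in every member, which is given as a description because lines and brains were not tested against each other. Myc was higher than in PBS brains by 5.42 in BAL17VII cells and 5.27 in BAL17 cells. Over the 36 biogenesis genes the difference had a median of 1.79 in BAL17VII cells, with a range of 0.65 to 3.0, and a median of 1.83 in BAL17 cells, with a range of 0.50 to 3.05. It exceeded 1 for 32 of the 36 genes in BAL17VII cells and 30 in BAL17 cells. The share of all genes with such a difference is not given here, so these counts do not set the members apart. The median level over all genes measured was 6.51 to 6.62 on the line arrays and 6.65 to 6.71 on the PBS arrays. Ddx21, a helicase that acts in RNA polymerase I transcription and rRNA processing, stood at the top with 3.0 in BAL17VII cells and 3.05 in BAL17 cells. Tsr1, a factor of late 40S maturation, stood at the bottom with 0.65 in BAL17VII cells and 0.50 in BAL17 cells. Nucleolin (Ncl), an abundant nucleolar RNA-binding protein, had a mean of 11.06 in PBS brains and lay above it by 0.74 in BAL17VII cells and 0.65 in BAL17 cells.

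The comparison of the cultured lines asks whether the derived line BAL17VII differs from BAL17 in this programme. Most members did not pass the test. Of the 39 members, 1 rose (2.6%) and 5 fell (12.8%), where 17.3% of the 10717 genes tested rose and 14.5% fell. The share of members that fell was thus near that of all genes. The median difference over the members was 0.00, as it was over all genes tested. Nolc1, the nucleolar chaperone of snoRNPs, fell the most. It measured 9.96, 10.18, 9.91, 9.86, 9.83 and 9.93 in BAL17VII cells and 10.51, 10.41, 10.51, 10.48, 10.52 and 10.46 in BAL17 cells, with no overlap and a difference of -0.54 ± 0.06 (adjusted p = 4.59e-06). Odc1 fell by 0.29 ± 0.07, the large subunit helicase gene Ddx18 by 0.27 ± 0.06, the processome gene Utp20 by 0.19 ± 0.06 and Wdr43 by 0.18 ± 0.05. The second probe sets of Odc1 and Ddx18 differed by -0.21 and -0.19.

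Nop14, another processome component, was the gene that rose, by 0.16 ± 0.06 (adjusted p = 0.0483). Its call and those of Utp20 and Wdr43 were lost in some alternatives. Myc differed by 0.15 ± 0.06 and was not called (adjusted p = 0.0597), although 5 of 6 BAL17VII arrays exceeded all BAL17 arrays. A two-sided exact permutation test on Myc alone gave p = 0.013 for this pair, and 0.0156 after adjustment over the 6 pairs of groups tested for Myc. Max, which encodes MYC's partner, was higher in BAL17VII cells by 0.36 ± 0.06 (adjusted p = 0.00033). The count for the lines rests on the spread used, since a single fit over all 32 arrays called 0 members higher and 3 lower. The share of all genes called in that fit is not given here.

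Against PBS brains, the implanted groups ask how far the programme of the lymphoma cells is seen in whole brain. Myc rose in all 3 groups, and no member fell in any of them. In BAL17VII brains at day 21, 13 of the 39 members rose, where 3.37% of the 11965 genes tested rose and 1.64% fell. That count was 8 in a fit of the BAL17VII and PBS brains only, 7 without BAL17VII replicate 2 or 3, 8 without BAL17VII replicate 5 or PBS replicate 3, 4 or 5, and 15 without BAL17VII replicate 1. The number of all genes called also varied widely over the alternatives, as given below, so the change in this count is a description. Calls of Fbl, Heatr1, Mybbp1a, Ncl, Srm and Wdr75 in BAL17VII brains were lost in some of these fits. The 15 without BAL17VII replicate 1 include Polr1b, whose limit is given below. In BAL17 brains at day 28, 26 rose, with 8.87% of all genes rising and 21.6% falling, and in BAL17 brains at day 21, 30 rose, with 13.1% of all genes rising and 32% falling. The members' median differences were 0.26 in BAL17VII brains, 0.46 in BAL17 brains at day 28 and 0.59 in BAL17 brains at day 21, beside medians of -0.03, -0.10 and -0.11 over all genes tested. The 3 comparisons share the same PBS brains, so their members' values are given side by side and are not independent of each other.

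In the same brains 16, 19 and 19 of the 19 mitosis genes rose in BAL17VII brains, BAL17 brains at day 28 and BAL17 brains at day 21, and 9, 11 and 11 of 12 tested B lineage genes did, while 1 of them fell in BAL17 brains at day 21. Of 14 neuronal genes, 2, 9 and 12 fell, as did 0, 10 and 9 of 11 oligodendrocyte genes, 0, 5 and 8 of 10 astrocyte genes, 0, 1 and 7 of 7 microglia genes and 0, 6 and 0 of 6 choroid plexus and ependyma genes. The mean of 11 monocyte and macrophage markers was 6.17 to 6.81 in BAL17VII brains and 5.96 to 6.31 in PBS brains. In BAL17 brains it was 6.31 to 6.99 at day 28 and 6.28 to 6.64 at day 21. The rise of the members thus went along with higher B lineage and mitosis transcripts and, mainly in BAL17 brains, with lower neuronal ones. The part of all these shifts in the result was not tested. All 39 members passed the intensity filter in every comparison. Polr1b did so only through implanted brains, since it exceeded the array median in 0 of 5 PBS brains, so its rise is a description. Mitosis and B lineage means in PBS brains, 5.55 to 5.71 and 5.97 to 6.19, also lay below the array medians there (6.35 to 6.45). Genes of these lists may thus have passed the filter only through implanted brains, so the counts of their rises are a description too. Without Polr1b, 25 of 38 members rose in BAL17 brains at day 28 and 29 at day 21. Rrp9 and Rrp12 exceeded the array median in 2 of 5 PBS brains each, and in 7 and 6 of all 20 brains.

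Myc rose by 2.13 ± 0.33 in BAL17VII brains (adjusted p = 0.000575), by 3.25 ± 0.33 in BAL17 brains at day 28 (adjusted p = 5.82e-07) and by 3.84 ± 0.33 in BAL17 brains at day 21 (adjusted p = 3.25e-08). These differences correspond to 4.36-fold, 9.5-fold and 14.3-fold. The SD of Myc was 1.10 in BAL17VII brains against 0.18 to 0.33 in the other brain groups, and in a fit of the BAL17VII and PBS brains alone the rise was 2.13 ± 0.39 (adjusted p = 0.0231). Exact two-sided permutation tests gave p = 0.0159 for BAL17VII brains and p = 0.00794, the smallest that 5 against 5 brains allow, for BAL17 brains at either day. Without replicate 1 the rise in BAL17VII brains was 2.60 ± 0.17. The exact tests gave 0.0159, 0.0119 and 0.0119 after adjustment over the 6 pairs.

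Of the snoRNP members, Nop58, Fbl and Nop56, which encode the core proteins of box C/D particles with the methyltransferase fibrillarin, moved more than the U3 protein gene Rrp9. Nop58 had 8.98, 9.60, 9.55, 9.42 and 9.53 in BAL17VII brains, 9.90, 9.64, 9.77, 9.94 and 9.75 in BAL17 brains at day 28, 9.88, 10.01, 9.88, 9.89 and 10.36 in BAL17 brains at day 21, and 8.59, 8.75, 8.67, 8.29 and 8.38 in PBS brains. Every implanted brain was above every PBS brain. The rise was 0.88 ± 0.12 in BAL17VII brains, 1.26 ± 0.12 in BAL17 brains at day 28 and 1.47 ± 0.12 in BAL17 brains at day 21. Fbl rose by 0.44 ± 0.12, 0.81 ± 0.12 and 0.99 ± 0.12 in the same order. Without replicate 1, Nop58 was 0.99 ± 0.11 and Fbl 0.56 ± 0.10 above PBS in BAL17VII brains. Its second, dimmer probe set gave 0.25, 0.35 and 0.48. Nop56 differed by 0.26 ± 0.11 in BAL17VII brains without being called, and rose by 0.46 ± 0.11 and 0.79 ± 0.11 in BAL17 brains at day 28 and day 21. Rrp9 was not called in any of the 3 groups (0.07, 0.12 and 0.14). It exceeded the array median in only 7 of the 20 brains, so a small change in it may go unseen. The H/ACA genes Dkc1, which encodes the pseudouridine synthase dyskerin, Gar1 and Nhp2, with their chaperone gene Nolc1, all rose in BAL17 brains at both days, and none of the 4 was called in BAL17VII brains. The call of Nhp2 at day 28 (0.40 ± 0.15, adjusted p = 0.0428) was lost in some alternatives. Nolc1 measured 0.18 ± 0.09 in BAL17VII brains and rose by 0.62 ± 0.09 at day 28 and 0.77 ± 0.09 at day 21 in BAL17 brains. Dkc1 measured 0.32 ± 0.10 in BAL17VII brains (adjusted p = 0.054) and rose by 0.65 ± 0.10 and 0.70 ± 0.10 in BAL17 brains. Without replicate 1 of the BAL17VII brains, Dkc1 was called there (0.38 ± 0.10, adjusted p = 0.02).

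Among RNA polymerase I and its nucleolar regulators, all 6 members were called higher in BAL17 brains at both days, Polr1b with the limit given above, and 4 in BAL17VII brains. Ddx21 had 7.18, 8.22, 8.08, 8.01 and 8.17 in BAL17VII brains, 8.64, 8.37, 8.32, 8.54 and 8.52 in BAL17 brains at day 28, 8.76, 8.55, 8.68, 8.60 and 9.06 in BAL17 brains at day 21, and 7.21, 7.19, 7.10, 7.37 and 7.15 in PBS brains. As with Myc, replicate 1 of the BAL17VII brains was inside the PBS range and the other 14 implanted brains were above it. The rises of Ddx21 were 0.73 ± 0.14, 1.27 ± 0.14 and 1.52 ± 0.14 in BAL17VII brains, BAL17 brains at day 28 and BAL17 brains at day 21. Without replicate 1 the value for BAL17VII brains was 0.91 ± 0.10. Npm1, which encodes the nucleolar chaperone nucleophosmin, had 11.22, 11.29, 11.21, 11.12 and 11.37 in BAL17VII brains and 10.63, 10.59, 10.66, 10.75 and 10.59 in PBS brains, with replicate 1 above all PBS brains. It rose by 0.60 ± 0.09, 0.87 ± 0.09 and 1.05 ± 0.09, and by 0.60 ± 0.10 in BAL17VII brains without replicate 1. Mybbp1a rose by 0.36 ± 0.10, 0.69 ± 0.10 and 0.72 ± 0.10, and Ncl by 0.34 ± 0.10, 0.52 ± 0.10 and 0.60 ± 0.10. The catalytic subunit genes of RNA polymerase I, Polr1a and Polr1b, rose in BAL17 brains (0.50 and 0.59 at day 28, 0.58 and 0.74 at day 21) and were not called in BAL17VII brains (0.16 and 0.23). Without replicate 1, Polr1b measured 0.31 ± 0.09 there, which is a description as stated above.

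Of the 10 small subunit members, 4 rose in BAL17VII brains, 5 in BAL17 brains at day 28 and 6 in BAL17 brains at day 21. Wdr43 had 9.22, 10.01, 9.57, 9.30 and 9.49 in BAL17VII brains, 10.21, 10.12, 10.09, 10.14 and 10.19 in BAL17 brains at day 28, 10.25, 10.47, 10.23, 10.27 and 10.65 in BAL17 brains at day 21, and 8.81, 9.15, 9.0, 8.83 and 8.86 in PBS brains. No implanted group overlapped the PBS brains. It rose by 0.59 ± 0.12 in BAL17VII brains, 1.22 ± 0.12 in BAL17 brains at day 28 and 1.45 ± 0.12 in BAL17 brains at day 21, and by 0.66 ± 0.12 in BAL17VII brains without replicate 1. The processome genes Nop14, Heatr1 and Wdr75 also rose in all 3 groups, by 0.36 to 0.42 in BAL17VII brains, by 0.51 to 0.79 in BAL17 brains at day 28 and by 0.78 to 0.99 in BAL17 brains at day 21. Utp15 rose in BAL17 brains at both days (0.30 and 0.33). Nat10, the rRNA acetyltransferase gene, rose in BAL17 brains at day 21 (0.29 ± 0.10, adjusted p = 0.0202), a call that was lost in some fits with 1 array left out, and measured 0.21 ± 0.10 at day 28 and 0.07 ± 0.10 in BAL17VII brains. Utp20, Rrp12, Bysl and Tsr1 were not called in any of the 3 groups, with differences between -0.15 and 0.26.

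Of the 12 large subunit members, 1 rose in BAL17VII brains, 6 in BAL17 brains at day 28 and 8 in BAL17 brains at day 21. Gnl3, which encodes the nucleolar GTPase nucleostemin, was called in all 3 groups. It had 8.33, 8.86, 8.64, 8.46 and 8.71 in BAL17VII brains, 8.98, 8.83, 8.85, 8.99 and 8.98 in BAL17 brains at day 28, 9.32, 9.35, 9.18, 9.17 and 9.68 in BAL17 brains at day 21, and 8.09, 8.24, 8.02, 7.76 and 8.06 in PBS brains. All implanted brains exceeded all PBS brains, and the rises were 0.57 ± 0.11, 0.89 ± 0.11 and 1.31 ± 0.11, with 0.64 ± 0.11 in BAL17VII brains without replicate 1. Rrp1b, a nucleolar processing factor, rose by 0.70 ± 0.09 at day 28 and 0.99 ± 0.09 at day 21 in BAL17 brains and measured 0.23 ± 0.09 in BAL17VII brains (adjusted p = 0.15). Rrs1, Ddx18, Nop16 and Nop2, which act in 60S precursor assembly, rose in BAL17 brains by 0.30 to 0.57 at day 28 and by 0.32 to 0.72 at day 21, and measured -0.03 to 0.34 in BAL17VII brains without being called. Of the PeBoW genes, Wdr12 and Pes1 rose in BAL17 brains at day 21 (0.51 ± 0.11 and 0.41 ± 0.13) and were not called at day 28 (0.28 ± 0.11 and 0.16 ± 0.13), and Bop1 was not called in either (0.20 at day 28 and 0.18 at day 21). The second probe set of Wdr12 gave 0.30 at day 28 and 0.54 at day 21. Ebna1bp2, Nle1 and Nip7 were not called in any group, with differences between -0.06 and 0.24. The polyamine gene Srm rose by 0.35 ± 0.10, 0.37 ± 0.10 and 0.63 ± 0.10 in BAL17VII brains, BAL17 brains at day 28 and BAL17 brains at day 21. Odc1 rose at day 21 in BAL17 brains (0.55 ± 0.13), with 0.29 ± 0.13 at day 28 and 0.28 ± 0.13 in BAL17VII brains.

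**Figure D2:**
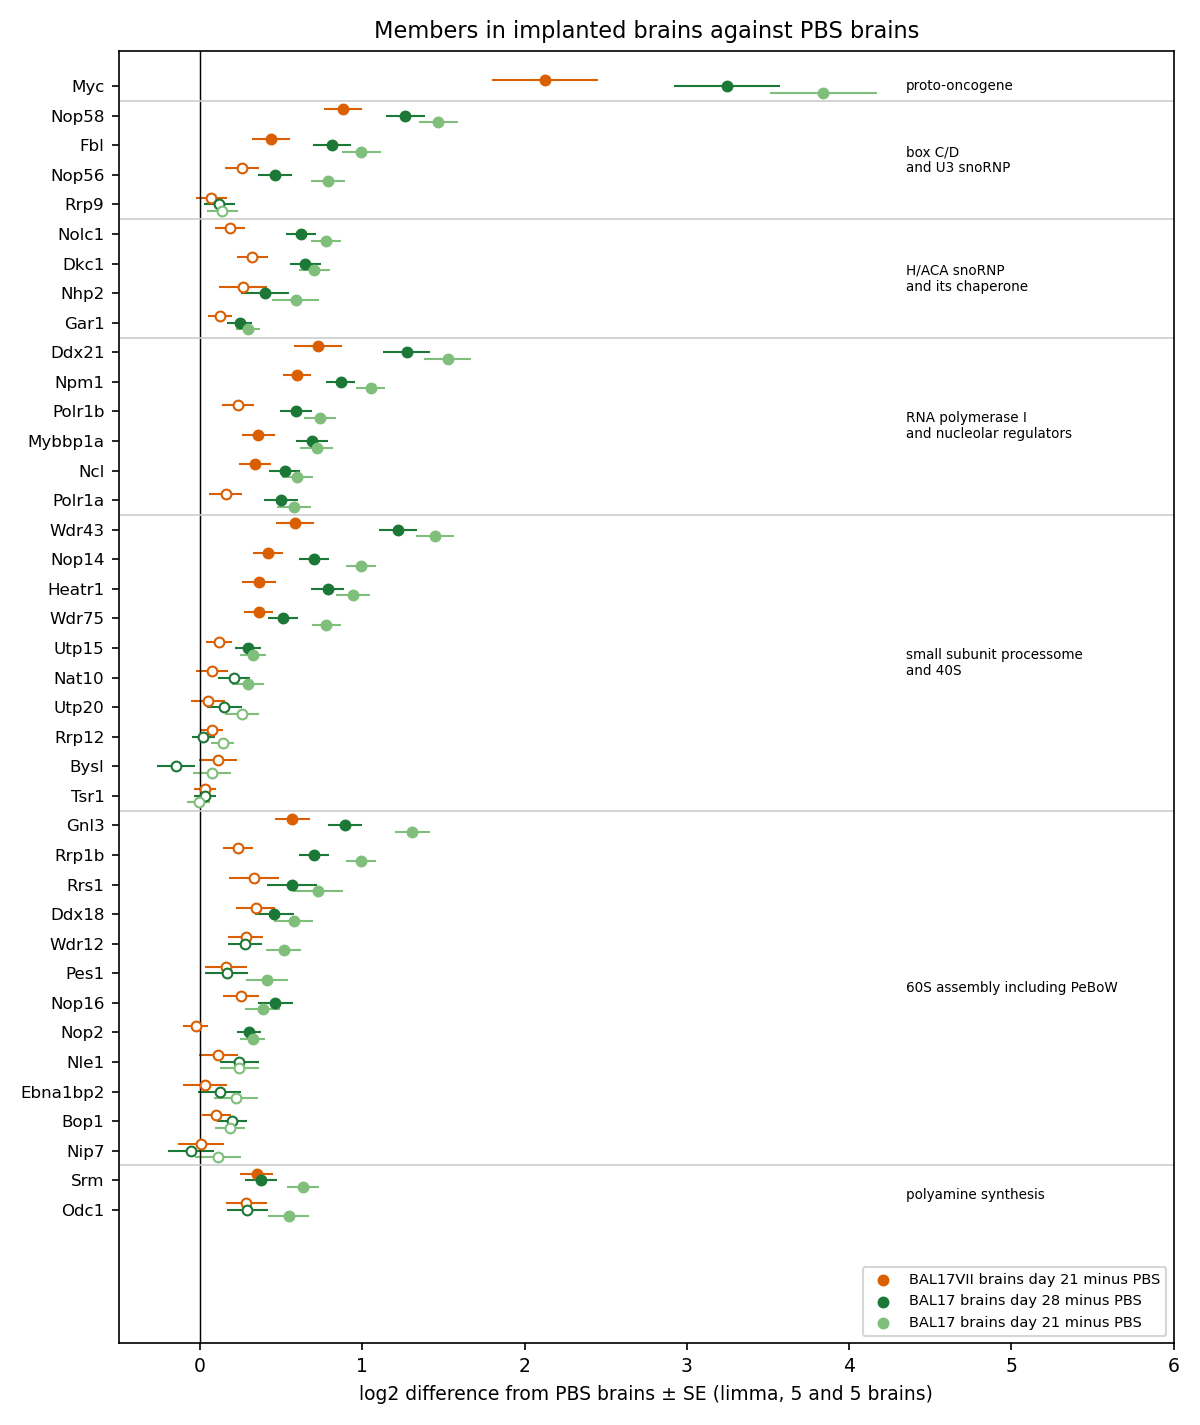
Log2 difference from PBS brains ± SE for each of the 39 members, ordered by role, in BAL17VII brains at day 21 (orange), BAL17 brains at day 28 (dark green) and BAL17 brains at day 21 (light green), 5 against 5 brains each. Filled points passed an adjusted p of 0.05 in limma and open points did not. Myc lies at 2.13, 3.25 and 3.84, while the biogenesis genes lie between -0.15 and 1.52.

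Of the members, 9 were not called even in BAL17 brains at day 21, where the differences were largest: Tsr1, Bysl, Nip7, Rrp9, Rrp12, Bop1, Ebna1bp2, Nle1 and Utp20. Of these 9, Tsr1, Nip7, Bysl, Rrp12, Bop1, Nle1 and Rrp9 had BAL17 cells above PBS brains by 0.50 to 1.09, whereas Ebna1bp2 and Utp20 had 1.45 and 1.58, beside a median of 1.83 over the 36 genes. On the linear scale, the excess of an implanted brain group over PBS brains was set against the excess of its line over PBS brains. For Myc it came to 9.997% of the line's in BAL17VII brains, 22.7% in BAL17 brains at day 28 and 36.2% in BAL17 brains at day 21. Over the 36 biogenesis genes the median was 6.41% in BAL17VII brains, 12.9% in BAL17 brains at day 28 and 16.9% in BAL17 brains at day 21. The range over the genes was wide, from -0.90% to 39.3%, from -11.5% to 77.1% and from -1.20% to 91.9% in that order, and the highest values were those of Ncl. Without replicate 1 of the BAL17VII brains, a setting added after seeing the data, Myc came to 12.4% and the 36 genes to a median of 7.30%, with a range of -5.27% to 41.8%. Arrays compress high intensities and add background to low ones, and it is not stated whether lines and brains were normalized together, so these shares describe the deposited values and not cell numbers.

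The comparison of BAL17VII with BAL17 brains at day 21 asks whether the lines differ in the brain. No member rose and 19 of the 39 fell, where 17.3% of all 11965 genes tested rose and 6.82% fell. The members' median was -0.33, beside 0.07 over all genes. Myc was lower by 1.72 on the log2 scale (-1.72 ± 0.33, adjusted p = 0.00121), with no overlap between 7.12 to 9.94 in BAL17VII brains and 10.35 to 11.19 in BAL17 brains. The exact permutation p was 0.00794, the smallest possible, and 0.0119 after adjustment over the 6 pairs. Without replicate 1 of the BAL17VII brains the difference was -1.24 ± 0.17 (adjusted p = 9.82e-05), and over all alternatives the adjusted p ran from 4.40e-05 to 0.0165. Wdr43 fell by 0.86 ± 0.12, Ddx21 by 0.80 ± 0.14, Rrp1b by 0.76 ± 0.09 and Gnl3 by 0.74 ± 0.11, and none of these 4 overlapped between the groups. Nolc1, Nop58, Heatr1, Nop14, Fbl, Nop56 and Polr1b fell by 0.50 to 0.59, and Npm1, Polr1a, Wdr75, Dkc1, Mybbp1a, Nop2 and Srm by 0.29 to 0.46. By role, 3 of 4 box C/D and U3 members, 2 of 4 H/ACA members, 5 of 6 polymerase I members, 4 of 10 small subunit members, 3 of 12 large subunit members and 1 of 2 polyamine members fell. In the same pair, 9 of 12 B lineage genes and 13 of 19 mitosis genes fell, 7 of 14 neuronal genes were higher, and the B lineage mean was 6.96 in BAL17VII brains against 7.52 in BAL17 brains. Of other markers, 9 of 11 oligodendrocyte genes (median of the list 0.60, Ugt8a 1.43 ± 0.17), 7 of 10 astrocyte genes (Aqp4 0.88 ± 0.15), 6 of 7 microglia genes and both tested pituitary genes (Prl 6.10 ± 1.06 and Gh 4.44 ± 0.81) were higher in BAL17VII brains. The part of these differences in the members' values was not tested. Without replicate 1 of the BAL17VII brains 18 members fell, and Srm was not called (-0.27 ± 0.11, adjusted p = 0.0998). Without Polr1b, 18 of 38 fell.

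The difference between BAL17VII and BAL17 was lower in brains than in culture for 18 members, Polr1b among them, and higher for none. The same test called 14.3% of 13166 genes higher and 10.9% lower. The B lineage mean also differed between these brain groups, as given above. This test cannot tell a change within the lymphoma cells from a different share of them in the brain. For Myc the line difference was -1.72 in brains and 0.15 in culture, and the difference between these was -1.87 ± 0.37 (adjusted p = 0.000296). Ddx21 had -0.80 in brains and -0.05 in culture (-0.75 ± 0.17), and Nop14 had -0.57 in brains and 0.16 in culture (-0.73 ± 0.11). Nolc1 did not pass this test: it was lower in BAL17VII by 0.59 in brains and by 0.54 in culture (-0.59 and -0.54), with a difference of -0.05 ± 0.11 (adjusted p = 0.778). Odc1 and Ddx18 had values of -0.26 and -0.23 in brains and -0.29 and -0.27 in culture, and were likewise not called. In this test 6 of 13 B lineage genes were lower and 1 higher, and 8 of 19 mitosis genes were lower. Without replicate 1 of the BAL17VII brains 16 members were called, Myc among them at -1.39 ± 0.19, and Polr1a (-0.32 ± 0.12, adjusted p = 0.0526) and Ncl (-0.34 ± 0.13, adjusted p = 0.0597) were not.

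**Figure D3:**
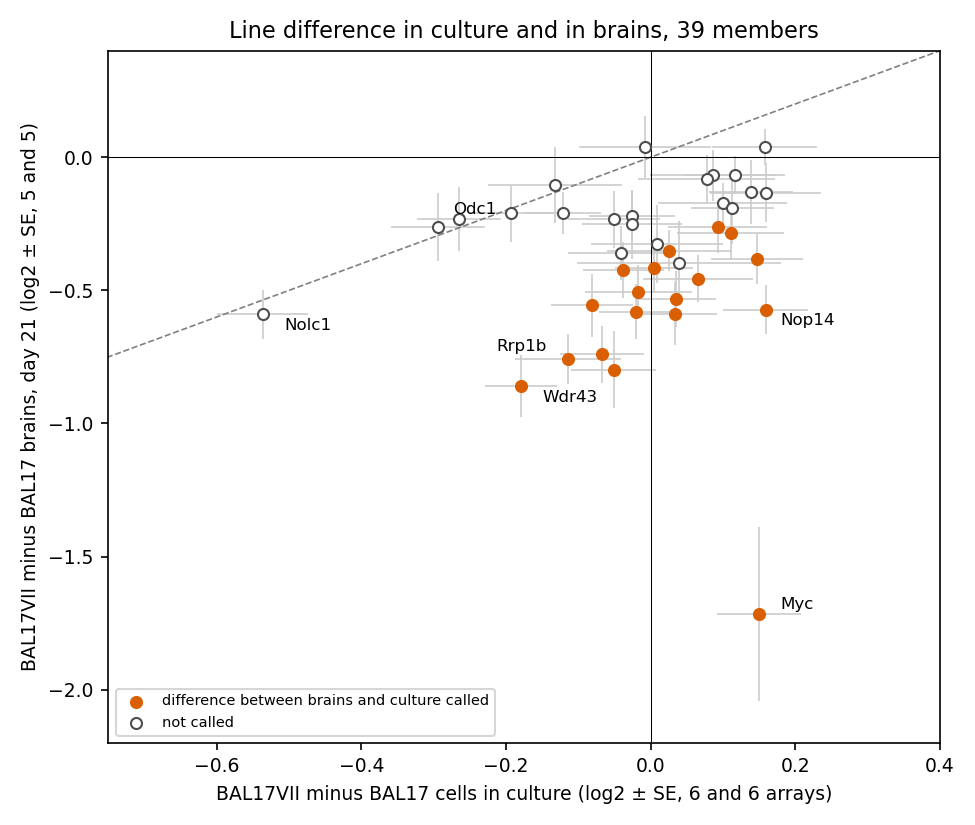
Difference between BAL17VII and BAL17 for each of the 39 members, in culture on the x axis (6 and 6 arrays) and in brains at day 21 on the y axis (5 and 5 brains), as log2 ± SE. Filled points are the 18 members for which the difference between brains and culture was called, and the dashed line marks equal differences. Myc lies at 0.15 and -1.72, while Nolc1 lies near the line at -0.54 and -0.59.

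BAL17 brains at day 28 and day 21 were compared to see whether the programme changes with time. No member was called higher or lower by limma (0 of 39), where 1.01% of all genes rose and 0.493% fell. At an unadjusted p under 0.05, 8 members were lower at day 28 and none was higher. The share of all genes under that limit is not given here, so this count is a description. Other settings called 0 to 2 members after adjustment. The median over the members was -0.16, beside 0.01 over all genes. Of the 39 members, 35 had values below 0, while 52.3% of all genes tested had values above 0. Gnl3 had the smallest adjusted p, with a difference of -0.42 ± 0.11 (adjusted p = 0.0533, and 0.00777 to 0.167 over the alternatives). Myc was 10.14 ± 0.18 at day 28 and 10.74 ± 0.33 at day 21 (SD, n = 5 each), and no brain at day 28 reached the lowest brain at day 21. Its difference of -0.59 ± 0.33 was not called in the fit over all brains (adjusted p = 0.469). In a fit of these 10 brains alone it was called (-0.59 ± 0.14, adjusted p = 0.0347, against 0.0347 to 0.703 over the alternatives), and the exact permutation test gave p = 0.00794, the smallest possible, and 0.0119 after adjustment over the 6 pairs. The B lineage mean was 7.63 at day 28 against 7.52 at day 21, and the mitosis mean 7.65 against 7.74. Of 6 choroid plexus and ependyma genes, 3 were lower at day 28 (Clic6 -1.10 ± 0.23, Otx2 -0.70 ± 0.18 and Folr1 -0.61 ± 0.15), while 2 of 10 astrocyte genes, 1 of 14 neuronal genes (Camk2a 0.38 ± 0.09) and 1 of 7 monocyte and macrophage genes (Itgam 0.58 ± 0.14) were higher, and their part in the members' values was not tested. With PBS brains at day 28 only, time after surgery without lymphoma was not assessed.

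Within the BAL17VII brains, ordering by Myc gave replicates 2, 5, 3, 4 and 1, and the B lineage mean gave the same order. The biogenesis mean differed only in placing replicate 3 (8.201) just above replicate 5 (8.197). In BAL17 brains at day 21, replicate 5 was highest for both Myc (11.19) and the biogenesis mean (8.70), but replicate 2, which was lowest for Myc (10.35), was second for the biogenesis mean (8.62). In BAL17 brains at day 28, replicate 4 was highest for Myc (10.35) and lowest for the biogenesis mean (8.32), and replicate 1, lowest for Myc (9.86), was highest for the B lineage mean (7.81). With 5 brains per group, no correlation is given.

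**Figure D4:**
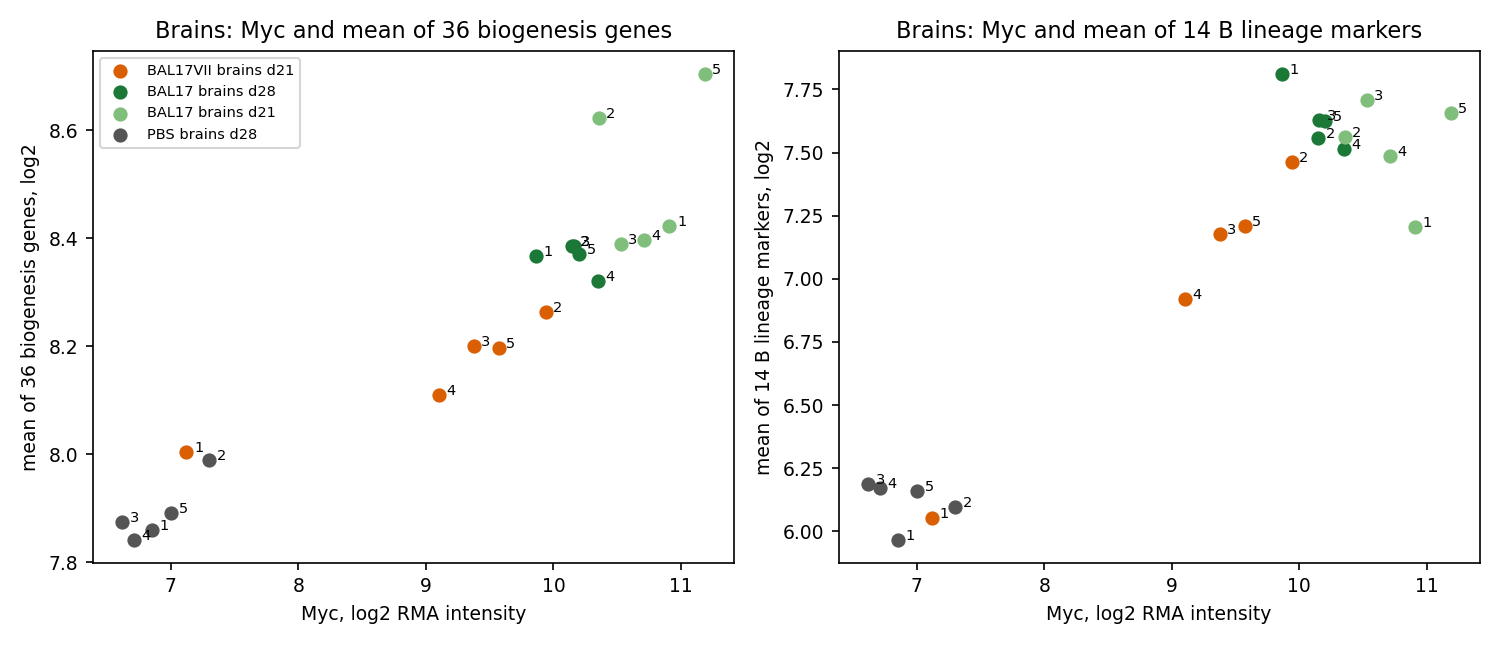
Myc (x axis, log2 RMA intensity) against the mean of 36 biogenesis genes (left) and against the mean of 14 B lineage markers (right) in each of the 20 brains, with replicate numbers beside the points. BAL17VII replicate 1 lies with the PBS brains, replicates 3, 4 and 5 have Myc values between those of the PBS and BAL17 brains, and replicate 2 has a Myc value of 9.94, within the range of the BAL17 brains. BAL17 brains at day 28 (dark green) have B lineage means of 7.51 to 7.81 at Myc values of 9.86 to 10.35, while those at day 21 (light green) have 7.21 to 7.71 at 10.35 to 11.19.

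Other genes of the pathway, listed apart from the members, were counted list by list against PBS brains. Of 35 further large subunit assembly genes tested, 8 rose in BAL17VII brains, 17 rose and 2 fell in BAL17 brains at day 28, and 24 rose and 2 fell in BAL17 brains at day 21. Their medians were 0.17, 0.22 and 0.40. Lyar, a nucleolar zinc finger protein gene, rose by 0.89 ± 0.13, 1.36 ± 0.13 and 1.57 ± 0.13. Of 37 further small subunit genes, 0 were called in BAL17VII brains (median 0.12), 15 rose at day 28 and 19 at day 21 in BAL17 brains (medians 0.16 and 0.22), with Noc4l at 0.31 ± 0.07 and 0.37 ± 0.07. Of 10 further RNA polymerase I genes, 1, 3 and 4 rose, led by Taf1d, a subunit of the SL1 initiation factor, at 1.31 ± 0.23, 1.82 ± 0.23 and 1.76 ± 0.23. Of 11 RNA exosome genes 1, 4 and 7 rose, and 0, 1 and 1 fell, with Exosc8 at 0.53 ± 0.12, 0.84 ± 0.12 and 0.95 ± 0.12. Of 14 further snoRNP and rRNA modification genes, 0, 3 and 5 rose and none was called lower, with medians of 0.17, 0.14 and 0.20. Among them Nop53 rose by 0.36 ± 0.08 at day 28 and 0.60 ± 0.08 at day 21 in BAL17 brains. Ribosomal protein genes of the cytosol, the products that the pathway assembles, rose in 11, 15 and 17 of 18 cases with medians of 0.42, 0.65 and 0.81. Rplp0, the stalk protein gene, rose by 1.12 ± 0.15, 1.74 ± 0.15 and 1.99 ± 0.15.

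Further MYC targets outside ribosome production rose in 6, 10 and 13 of 19 cases in BAL17VII brains, BAL17 brains at day 28 and BAL17 brains at day 21. They were led by the mitochondrial folate enzyme genes Shmt2 (1.04 ± 0.19, 1.69 ± 0.19 and 1.84 ± 0.19) and Mthfd2 (1.33 ± 0.20, 1.71 ± 0.20 and 1.72 ± 0.20). Of 10 tested genes of MYC's own dimerization network, 0, 1 and 1 rose and none was called lower, and the gene called was Mlxip (0.08 ± 0.11 in BAL17VII brains, 0.30 ± 0.11 at day 28 and 0.48 ± 0.11 at day 21). The other family members Mycn and Mycl and the partner gene Max were not called against PBS in any implanted group, with differences between -0.23 and 0.07. Among genes upstream of Myc, the kinase gene Pim2 rose by 0.70 ± 0.10 at day 28 and 0.85 ± 0.10 at day 21, while Ctnnb1, which encodes beta-catenin, fell by 0.41 ± 0.10 and 0.48 ± 0.10, and Rptor, which encodes an mTORC1 subunit, by 0.30 ± 0.07 and 0.37 ± 0.07. Of the 12 genes of that list, 0, 1 and 2 rose and 1, 4 and 7 fell. Of 7 further genes of polyamine metabolism, 0, 0 and 2 rose and 0, 2 and 1 fell, with the antizyme gene Oaz2 lower by 0.52 ± 0.14 (difference -0.52) in BAL17 brains at either day. Of 6 genes of p53 and nucleolar stress, 0, 0 and 1 rose and 0, 1 and 1 fell, the last being Zmat3 (-0.36 ± 0.09 at day 28 and -0.66 ± 0.09 at day 21). Mki67 and Top2a, markers of proliferation, rose by 2.22 ± 0.36 and 3.16 ± 0.52 in BAL17VII brains, by 3.21 ± 0.36 and 4.28 ± 0.52 in BAL17 brains at day 28, and by 3.37 ± 0.36 and 4.37 ± 0.52 in BAL17 brains at day 21. The B cell receptor gene Cd79b rose by 2.0 ± 0.30, 2.98 ± 0.30 and 2.84 ± 0.30. Mitosis and B lineage genes may have passed the filter only through implanted brains, so the rises of Mki67, Top2a and Cd79b are a description.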

How the data were processed

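RNA from 12 arrays of cultured cells and 20 whole brains was measured on Affymetrix whole-transcript arrays. Per the submitters' processing notes, the authors used Affymetrix Expression Console and RMA, and the deposited values are linear intensities. Versions, and whether lines and brains were normalized together, are not given in the sources used here. Of 35556 probe sets, 21789 carry a single gene symbol in the platform annotation, 1621 carry several and 12146 none. The probe set with the highest mean stood for each of 19938 genes.

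Log2 intensities were fitted with limma 3.58.1 in R 4.3.3 (group means, eBayes, Benjamini-Hochberg adjustment over all genes of a fit, called at 0.05). Lines, brains and the difference between brains and culture had separate fits. Genes entered when above the array median on at least 6 line arrays, 5 brains, or 5 of all arrays. The fits were tested on simulated data. Myc alone was also tested by exact permutation. The members and lists were chosen with earlier results of these data known. All members are named, and of other lists up to 3 called genes with the smallest adjusted p in a comparison described, besides Max, Mycn, Mycl, Mxd3, Mxd4, Mki67, Top2a, Cd79a, Cd79b, Snap25 and Mbp. Alternatives changed the normalization, filter, probe set, variance model, arrays of the fit and the replicate block, and left out each array. The shares of the lines' excess without BAL17VII replicate 1 and the counts without Polr1b were added after seeing the data. The number of arrays limits the precision.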

Additional observations from a re-analysis of the deposited data

Results flagged for a closer look

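In 22 of the 240 sets of arrays of a group examined, 1 array lay further from the rest than the critical value of Dixon's test allows, where chance gives about 1 in 20. All values are log2 intensities, each beside the range of the other arrays of its group. In replicate 2 of the BAL17VII cells, Nolc1 was 10.18 (others 9.83 to 9.96), Ncl was 11.96 (others 11.74 to 11.80) and Utp15 was 9.96 (others 9.74 to 9.81). In replicate 1 of the BAL17 cells, Nop56 was 11.88 (others 11.72 to 11.75). In replicate 3 of the BAL17 cells, Bop1 was 7.37 (others 7.75 to 7.85). In replicate 4 of the BAL17 cells, Srm was 10.36 (others 10.53 to 10.64). In replicate 5 of the BAL17 cells, Mybbp1a was 9.76 (others 9.83 to 9.87). In replicate 1 of the BAL17VII brains, Ddx21 was 7.18 (others 8.01 to 8.22), Mybbp1a was 7.10 (others 7.40 to 7.47) and Utp20 was 6.92 (others 7.27 to 7.40). In replicate 5 of the BAL17VII brains, Tsr1 was 10.01 (others 9.87 to 9.89) and Rrp1b was 7.19 (others 6.89 to 6.95). In replicate 3 of the BAL17 brains at day 21, Nolc1 was 8.54 (others 8.90 to 8.98). In replicate 5 of the BAL17 brains at day 21, Nop58 was 10.36 (others 9.88 to 10.01), Polr1a was 8.46 (others 7.85 to 7.93), Npm1 was 12.02 (others 11.56 to 11.64) and Nat10 was 8.22 (others 7.63 to 7.73). In replicate 2 of the BAL17 brains at day 28, Nop14 was 8.77 (others 8.88 to 8.91). In replicate 4 of the BAL17 brains at day 28, the biogenesis mean was 8.32 (others 8.37 to 8.39). In replicate 2 of the PBS brains, Nop14 was 8.36 (others 8.10 to 8.16) and Heatr1 was 8.10 (others 8.20 to 8.21). In replicate 5 of the PBS brains, Mybbp1a was 6.92 (others 7.02 to 7.05).

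For 18 members the difference between BAL17VII and BAL17 was lower in brains at day 21 than in culture by the test of the difference itself. On the log2 scale it came to -1.87 for Myc, -0.75 for Ddx21, -0.73 for Nop14, -0.68 for Wdr43, -0.67 for Gnl3, -0.64 for Rrp1b, -0.62 for Nop58, -0.57 for Nop56, -0.56 for Heatr1. The further values were -0.53 for Dkc1, -0.52 for Npm1, -0.49 for Polr1b, -0.48 for Fbl, -0.42 for Wdr75, -0.40 for Srm, -0.39 for Polr1a, -0.38 for Nop2 and -0.35 for Ncl.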

How the results depend on the processing

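No value changed sign under the alternatives while called. For the cultured lines, 6 members were called, against 3 in a single fit of all arrays and 5 to 8 with 1 array left out. For BAL17VII against PBS brains, 13 were called, against 8 in a fit of both groups only and 7 to 15 with 1 array left out: 7 without BAL17VII replicate 2 or 3, 8 without BAL17VII replicate 5 or PBS replicate 3, 4 or 5, and 15 without BAL17VII replicate 1. The 15 include Polr1b, whose rise is a description. Of the 13, 7 were called under all 21 alternatives, and Fbl, Heatr1, Mybbp1a, Ncl, Srm and Wdr75 were not. The count was 25 to 27 for BAL17 brains at day 28 and 29 to 31 at day 21 against PBS, 18 to 21 for BAL17VII against BAL17 brains, and 16 to 19 for the difference between brains and culture, each with 1 array left out. Between day 28 and day 21 no member was called, and none with 1 array left out, but 1 was under quantile normalization, the filter at percentile 75, trended and robust moderation, array weights, all arrays in a single fit and the replicate block, and 2 in a fit of both groups only. The cause of these differences was not tested. The share of all genes called is not given for each alternative, so these counts are a description.

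The number of all genes called ran from 128 to 1322 around 599 for BAL17VII against PBS brains and from 44 to 620 around 180 for day 28 against day 21. It fell to 1644 in a fit of both groups only and 1762 without BAL17VII replicate 1, against 2885, for BAL17VII against BAL17 brains. With the filter at percentile 75, 2343 genes were called at day 28 and 3286 at day 21 against PBS, beside 3644 and 5398.

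It is not stated that the replicate numbers pair the arrays. Same-numbered arrays of the lines correlated in their deviations between -0.01 and 0.19. Single correlations reached 0.54, between BAL17 brains at day 21 and PBS brains, and in no pair of groups were all above 0.1. With so few correlations per pair of groups, a shared handling of same-numbered arrays cannot be judged. With the replicate block, 6 members were called between the lines, 15 in BAL17VII, 27 in BAL17 day 28 and 31 in BAL17 day 21 brains against PBS, 23 for BAL17VII against BAL17 brains, and 18 for the difference between brains and culture. The shares of all genes called with the block are not given here, so these counts are a description.

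Taking the median over the genes in place of the mean, the biogenesis level was 9.75 in BAL17VII cells, 9.87 in BAL17 cells, 7.93 in BAL17VII brains, 8.15 in BAL17 brains at day 28, 8.30 at day 21 and 7.67 in PBS brains. With only the 31 genes above the array median on all arrays it was 9.93, 9.96, 8.40, 8.62, 8.77 and 8.12 in that order. In BAL17 cells it was 9.72 over all members but Myc, 9.63 after quantile normalization and 9.77 after median centring, and in BAL17 brains at day 28 it was 8.41, 8.40 and 8.32. With 1 array left out it ran from 9.64 to 9.68 in BAL17VII cells, 9.66 to 9.68 in BAL17 cells, 8.13 to 8.19 in BAL17VII brains, 8.36 to 8.38 and 8.46 to 8.54 in BAL17 brains at day 28 and day 21, and 7.87 to 7.90 in PBS brains.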
